A study of Mus musculus with 23 samples.

Results

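The 10 genes described here mark the lining of the brain ventricles, and they were followed across every labelled library of a mouse foot-shock study. They comprise 8 markers of the choroid plexus epithelium (Ttr, Folr1, Clic6, Aqp1, Kl, Otx2, Prlr and Sostdc1) and 2 markers of ependyma (Ccdc153 and Foxj1). They were chosen by name, and all 10 were found among the 18578 genes of the table. All 10 also passed the filter that left 17118 genes for testing. The libraries were made from brain of male C57BL/6J mice, either heterozygous for the edited Grin2b allele C456Y (HT, called heterotype in the labels) or wild type (WT). The protein of Grin2b, GluN2B, is a subunit of NMDA-type glutamate receptors. There were 6 libraries of heterozygous mice given foot-shock (HT shock), 6 of heterozygous controls (HT control), 5 of wild-type mice given foot-shock (WT shock) and 6 of wild-type controls (WT control). The labels give postnatal day 17 for all groups whereas the series text speaks of adult mice, so the age is unresolved, and no brain region is named. The labels name no Cre or tissue-specific driver for the allele.

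The choroid plexus is a vascular fold of tissue in each ventricle whose epithelium makes most of the cerebrospinal fluid and moves hormones, folate and ions between blood and fluid. Ependymal cells line the ventricle walls and carry motile cilia that stir the fluid. Fewer cells of a type and less RNA per cell cannot be told apart in bulk brain samples such as these.

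Summed over genes, the scaled values of a library came to 30.98 M to 32.57 M normalized counts, which does not give its sequencing depth. On the first principal component of all tested genes (12.9% of the variance), HT control replicate 6 lay at 31.3. The other HT control libraries lay at -12.7 to 5.17, WT control at -18.5 to 1.63 and WT shock at -16.5 to -2.5. HT shock replicates 1 to 4 lay at 17.6 to 26, and replicates 5 and 6 at 11.4 and 12.5. HT control replicate 6 was thus on the side of the HT shock libraries. Whether this component is related to the ventricular genes was not tested. Grin2b averaged 10704 ± 655 normalized counts in HT shock, 12301 ± 1678 in HT control, 12833 ± 1389 in WT shock and 13621 ± 1019 in WT control (SD, n = 6, 6, 5 and 6). It did not pass in any comparison, with the lowest limma adjusted p of 0.0507 in HT shock against WT shock. Since C456Y names a substitution in the protein, the mRNA level does not check the genotype labels.

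The ventricular genes were detected in every library. Compared per length of exon sequence (GENCODE M21, GRCm38), Ttr stood far above the others, with a mean over libraries of 10463 normalized counts per kb. Foxj1 followed with 143 and Clic6 with 93.6 normalized counts per kb, and Prlr was lowest with 12.2. The length used joins all annotated exons of a gene, 15339 bases for Prlr, the longest of the 10 genes. Without division by length, Prlr averaged 188 normalized counts, above Otx2 (173), Aqp1 (92.6), Folr1 (77.7), Ccdc153 (73.7) and Sostdc1 (58.1). A further 6 choroid plexus genes, singled out after their values were seen, were also above 0 in all 23 libraries. They were Kcne2 (lowest library 20.2 normalized counts), Cldn2 (20.4), Mfrp (29.5), Kcnj13 (36.4), F5 (41.3) and Enpp2 (7628). Transcripts of these genes were thus found in all groups. Values of 0 were rare among all genes (1143 values over 18578 genes and 23 libraries), so being above 0 does not set these genes apart.

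**Figure D1:**
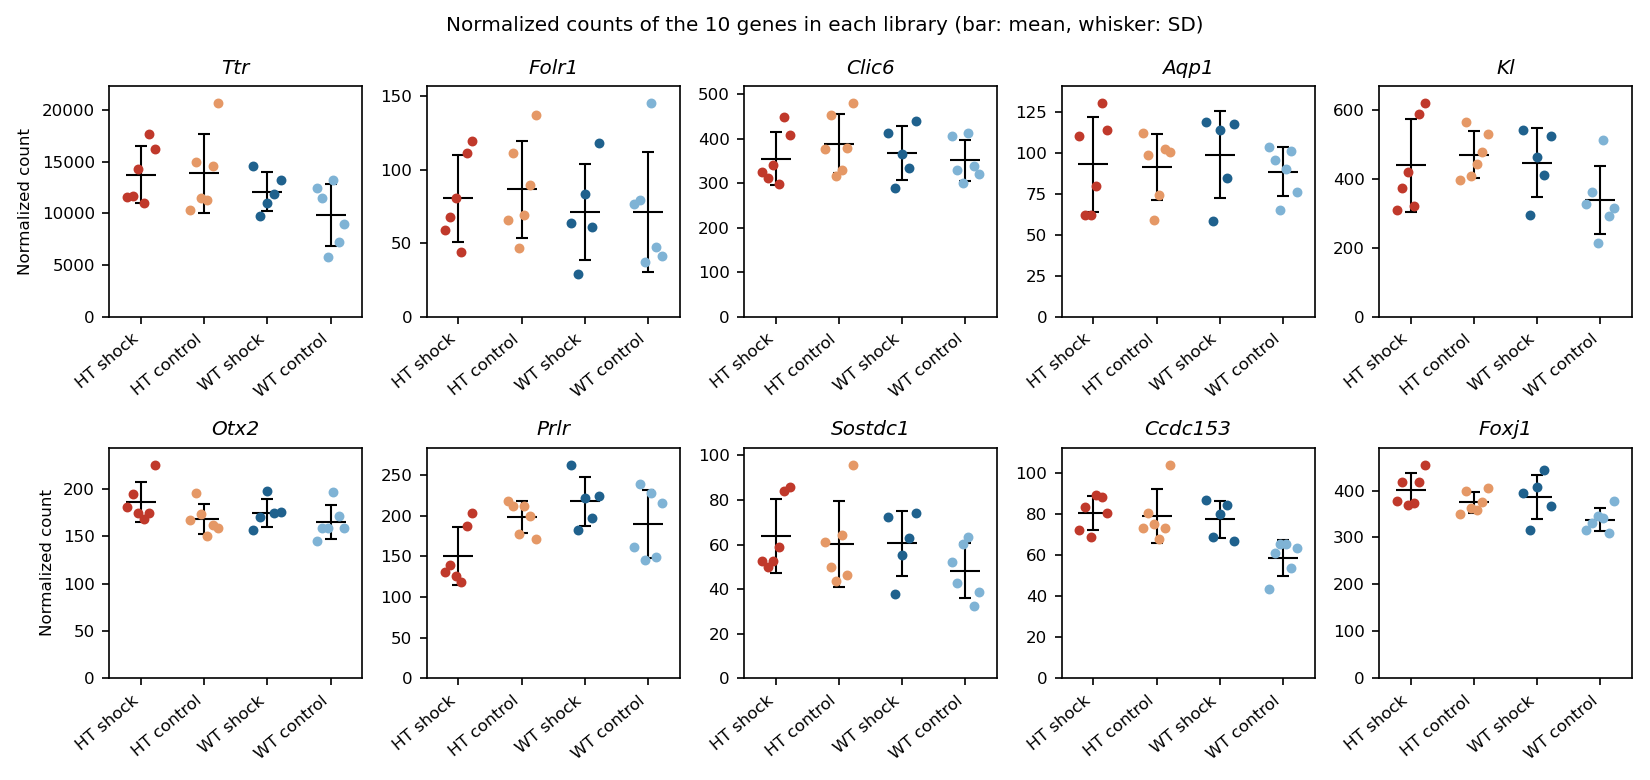
Normalized counts (vertical axes, from 0) of the 10 genes in HT shock, HT control, WT shock and WT control libraries. Points are libraries, bars means and whiskers SD. Most groups overlap. Prlr is lowest in 4 HT shock libraries, and Ccdc153 is lower in all 6 WT control libraries (43.3 to 65.6) than in every other library (66.8 to 104).

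Of the 10 genes, 1 passed in 1 of 5 comparisons, namely Prlr, which fell in HT shock against WT shock. In that comparison 9.28% of all tested genes passed in either direction and 5.33% passed as lower, so 1 in 10 is near the background. At an unadjusted p under 0.05 it was also 1 of 10, against 27.9% of all genes. The other comparisons had 0 called members, and 0% of all genes passed there by limma. At an unadjusted p under 0.05 they had 4 members in HT control against WT control (11.1% of all genes), 1 in HT shock against HT control (13.7%), 2 in WT shock against WT control (3.72%) and 1 in the interaction (6.43%).

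Prlr (ENSMUSG00000005268, chromosome 15, 10177238 to 10349180, plus strand, protein coding) encodes the prolactin receptor, a cytokine-type receptor that is abundant in the choroid plexus and is also found in hypothalamic neurons. Its lowest, median and highest values in HT shock were 118, 135 and 204 normalized counts. The 5 WT shock libraries had 263, 183, 221, 196 and 224 normalized counts. HT shock replicates 1 to 4 lay between 118 and 139 normalized counts, below every library of the other 3 groups. HT shock replicates 5 and 6, with 187 and 204, lay within the WT shock range, so the groups overlapped. Mean Prlr was 151 ± 35.5 normalized counts in HT shock (SD, n = 6) and 217 ± 30.6 in WT shock (SD, n = 5). On the log2 scale Prlr differed by -0.55 ± 0.15 (SE, adjusted p = 0.0264 by limma, 95% interval -0.85 to -0.24), and all 6 HT shock libraries were below the WT shock median. The call rests on single libraries. It was lost without any 1 of HT shock replicates 1, 2, 3 and 4 or of WT shock replicates 1, 3 and 5, where the adjusted p lay between 0.0513 and 0.0679 and the difference between -0.54 and -0.47.

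Against HT control, Prlr in HT shock had a log2 difference of -0.42 ± 0.14 (SE, adjusted p = 0.27). HT control libraries lay between 171 and 217 normalized counts with a median of 206, and all 6 HT shock libraries were below that median. Without HT control replicate 6 this difference was -0.46 ± 0.15 and passed (adjusted p = 0.0414), and with weights per library it was -0.50 ± 0.13 and passed (adjusted p = 0.0127). WT control libraries lay between 146 and 238 normalized counts with a median of 188, and overlapped HT control and WT shock. The unshocked genotypes differed by 0.09 ± 0.14 (SE, adjusted p = 0.836) and shock in wild type by 0.21 ± 0.15 (adjusted p = 0.998). The interaction of genotype and shock for Prlr was -0.63 ± 0.20 (SE, unadjusted p = 0.00452, adjusted p = 0.659), so a difference between the shock effects of the genotypes was not established.

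The sequences shown here are promoter windows of 300 bases around annotated starts (250 before, 50 after) from RefSeq on GRCm38.p6. The windows searched cover 5 of the 10 genes, namely Aqp1, Kl, Otx2, Prlr and Ccdc153. No window was searched for the other genes, Ttr among them, so nothing is said of their promoters. Shown are Prlr, the gene that was called, and 2 genes described next, Kl for the choroid plexus and Ccdc153 for ependyma. Windows were searched on both strands for TAATCC, a core of OTX binding sites, GTTGCC, a half-site of RFX factors that drive cilium genes, and TGTTTAC, a forkhead core. Matches are in capitals, and the motifs occur in 7.06%, 12.5% and 3.65% of all 32851 promoter windows of the table. The windows lie at chr15:10176988-10177287, plus strand (Prlr, the first of 3 annotated starts), chr5:150952357-150952656, plus strand (Kl), and chr9:44240427-44240726, plus strand (Ccdc153).
Prlr: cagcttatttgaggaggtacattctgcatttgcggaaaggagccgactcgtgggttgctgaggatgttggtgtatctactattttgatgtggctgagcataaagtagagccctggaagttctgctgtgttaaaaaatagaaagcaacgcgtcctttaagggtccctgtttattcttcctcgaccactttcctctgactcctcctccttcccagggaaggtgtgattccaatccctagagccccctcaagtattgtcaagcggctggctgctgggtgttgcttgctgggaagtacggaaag
Kl: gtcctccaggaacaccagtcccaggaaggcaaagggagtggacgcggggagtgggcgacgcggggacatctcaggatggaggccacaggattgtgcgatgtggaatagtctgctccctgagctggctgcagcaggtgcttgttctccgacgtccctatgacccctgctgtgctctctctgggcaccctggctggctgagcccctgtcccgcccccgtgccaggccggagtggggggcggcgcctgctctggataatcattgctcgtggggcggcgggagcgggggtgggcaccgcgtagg
Ccdc153: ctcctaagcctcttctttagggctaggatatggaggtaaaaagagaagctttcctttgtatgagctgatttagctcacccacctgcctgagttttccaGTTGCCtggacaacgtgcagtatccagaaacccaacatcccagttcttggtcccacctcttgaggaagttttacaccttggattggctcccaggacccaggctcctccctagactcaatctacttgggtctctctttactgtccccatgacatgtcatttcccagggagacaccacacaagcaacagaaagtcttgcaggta
Ccdc153 has GTTGCC on its own strand, beginning at position -152 from the start. The windows printed for Prlr and Kl have no match to the 3 motifs. Among windows not printed, the second of Prlr has TGTTTAC at -215, and that of Aqp1 has GTTGCC at -111. Of the 4 windows of Otx2, the first has GTTGCC at -41, the second has it at -177 and -44, and the third has TAATCC on the opposite strand at -211. The first and second windows of Otx2 overlap, and the match at -41 of the first is the same site as that at -177 of the second. A match is a description of letters and not evidence of binding.

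Kl (ENSMUSG00000058488, chromosome 5, 150952607 to 150993817, plus strand) encodes klotho, a membrane protein that acts as a co-receptor for the hormone FGF23 in kidney and is strongly expressed in the choroid plexus. Its lowest, median and highest values were 310, 396 and 619 normalized counts in HT shock and 396, 460 and 565 in HT control. The 5 WT shock libraries had 541, 295, 464, 410 and 523, and WT control had 215, 322 and 513 normalized counts. WT control replicate 3 had the lowest value of all libraries, and all 6 HT control libraries lay above the WT control median, although the groups overlapped. The log2 difference in HT control against WT control was 0.51 ± 0.19 (SE, limma adjusted p = 0.394). In WT shock against WT control it was 0.42 ± 0.20 (SE, adjusted p = 0.998).

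Ttr (ENSMUSG00000061808, chromosome 18, 20665280 to 20674321, plus strand) encodes transthyretin, the carrier of thyroxine that the choroid plexus secretes into the fluid. Its lowest, median and highest values were 10986, 13005 and 17716 normalized counts in HT shock and 10338, 13040 and 20675 in HT control. The WT shock libraries had 14617, 9704, 11029, 11898 and 13185, and WT control had 5797, 10221 and 13260 normalized counts. The highest library was HT control replicate 6 and the lowest WT control replicate 3, and the 4 groups overlapped. In HT control against WT control the log2 difference was 0.52 ± 0.20 (SE, adjusted p = 0.401), and without HT control replicate 6 it was 0.39 ± 0.20 (adjusted p = 0.814). After shock the genotypes differed by 0.18 ± 0.21 (adjusted p = 0.635), with a 95% interval of -0.27 to 0.62.

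Folr1, the folate receptor that carries folate into the fluid, varied most among the 10 genes. It ranged from 29.3 to 145 normalized counts, a ratio of 4.96, with a pooled SD within groups of 0.64 on the log2 scale, above that of 97.2% of tested genes. Its groups had medians of 74.5 in HT shock, 79.4 in HT control, 63.7 in WT shock and 62.0 in WT control. In the 4 group comparisons its differences lay between -0.10 and 0.36, each with an SE of at least 0.34. Aqp1, the water channel of the apical membrane, had means between 88.5 and 98.7 normalized counts in the 4 groups and differences between -0.10 and 0.13. Clic6, of the intracellular chloride channel family, had means between 352 and 389 normalized counts and differences between -0.13 and 0.14. Sostdc1, a secreted antagonist of BMP and Wnt signals, averaged 64.0 ± 16.6 normalized counts in HT shock, 60.2 ± 19.3 in HT control, 60.5 ± 14.7 in WT shock and 48.3 ± 12.2 in WT control (SD, n = 6, 6, 5 and 6). Between HT control and WT control Folr1 had 0.36 ± 0.34 and Sostdc1 0.30 ± 0.21 (SE), and without HT control replicate 6 they had 0.21 ± 0.36 and 0.15 ± 0.20. None of these 4 passed in any comparison.

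Otx2, a homeodomain factor required to form the choroid plexus and also present in some thalamic and midbrain neurons, varied little. It lay between 145 and 226 normalized counts in all libraries, with an SD within groups of 0.14 on the log2 scale, near the median of 0.14 over all tested genes. Its mean was 186 ± 21.2 normalized counts in HT shock, 168 ± 15.8 in HT control, 175 ± 14.7 in WT shock and 165 ± 17.6 in WT control (SD, n = 6, 6, 5 and 6). Its differences lay between 0.03 and 0.15 and did not pass.

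**Figure D2:**
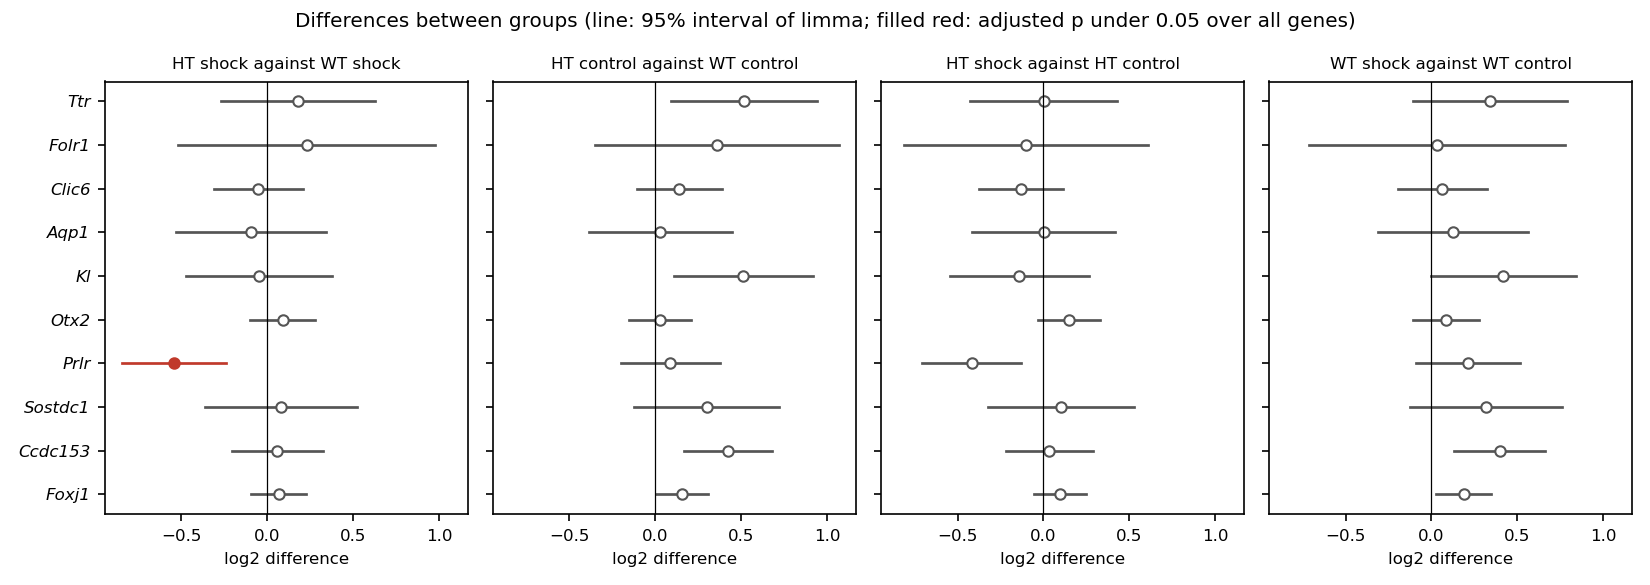
Log2 differences (horizontal axes) of the 10 genes in 4 comparisons, with 95% intervals of limma. The filled red point marks Prlr in HT shock against WT shock, -0.55, the single one with an adjusted p under 0.05. All 10 points lie above 0 in both comparisons against WT control.

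Ccdc153 (ENSMUSG00000070306, chromosome 9, 44240676 to 44247306, plus strand), a coiled-coil protein gene used as a marker of ciliated ependymal cells, had its lowest group in WT control. Its lowest, median and highest values were 68.9, 81.9 and 89.4 normalized counts in HT shock and 67.9, 74.1 and 104 in HT control. The WT shock libraries had 86.6, 68.5, 80.2, 84.3 and 66.8, and WT control had 43.3, 62.2 and 65.6 normalized counts. Each HT control library and each WT shock library was above all 6 WT control libraries. Such non-overlap towards higher values occurred in 0.187% of tested genes for HT control against WT control and in 0.164% for WT shock against WT control. The log2 differences were 0.42 ± 0.12 (SE, limma adjusted p = 0.338) for HT control against WT control and 0.40 ± 0.13 (adjusted p = 0.998) for WT shock against WT control. Neither passed over all genes, and without HT control replicate 6 the first was 0.34 ± 0.12 (adjusted p = 0.75). Both comparisons use the same 6 WT control libraries. After shock the genotypes differed by 0.06 ± 0.13 (SE, adjusted p = 0.808).

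Foxj1, the forkhead factor that switches on the genes of motile cilia, averaged 402 ± 34.5 normalized counts in HT shock, 375 ± 22.5 in HT control, 386 ± 47.4 in WT shock and 337 ± 24.6 in WT control (SD, n = 6, 6, 5 and 6). All 6 HT control libraries were above the WT control median, with overlap. Its differences were 0.15 ± 0.07 in HT control against WT control (SE, adjusted p = 0.447) and 0.19 ± 0.08 in WT shock against WT control (adjusted p = 0.998). Within heterozygous mice shock gave 0.10 ± 0.07 (adjusted p = 0.557).

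As a list, the 10 genes had positive differences in 10 of 10 cases in HT control against WT control, with a median of 0.23. Over all 17118 genes 49.8% were above 0 and the median was -0.001. The median of the 10 genes was 0.14 without HT control replicate 6. Of the 10, 4 had an unadjusted p under 0.05, all higher (Ccdc153, Kl, Ttr and Foxj1), against 4.96% of all genes. In WT shock against WT control the differences were also positive in 10 of 10, with a median of 0.20 against 49.8% above 0 and a median of -0.0004 over all genes. There 2 of 10 had an unadjusted p under 0.05, against 2.04% of all genes higher. After shock, HT against WT, 6 of 10 were positive with a median of 0.06 (50.8% of all genes above 0), and without WT shock replicate 2 the median was -0.06. Shock within heterozygous mice also gave 6 of 10, with a median of 0.002 (51% of all genes), which lay between -0.09 and 0.08 when single libraries were left out. In the interaction 1 of 10 was positive, with a median of -0.20 (49.8% of all genes). That median was -0.11 without HT control replicate 6, -0.34 without WT control replicate 4 and -0.39 without WT shock replicate 2. The first 2 of these comparisons share the WT control libraries, which also enter the interaction. Several of the genes also vary together between libraries, so the counts are not independent.

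**Figure D3:**
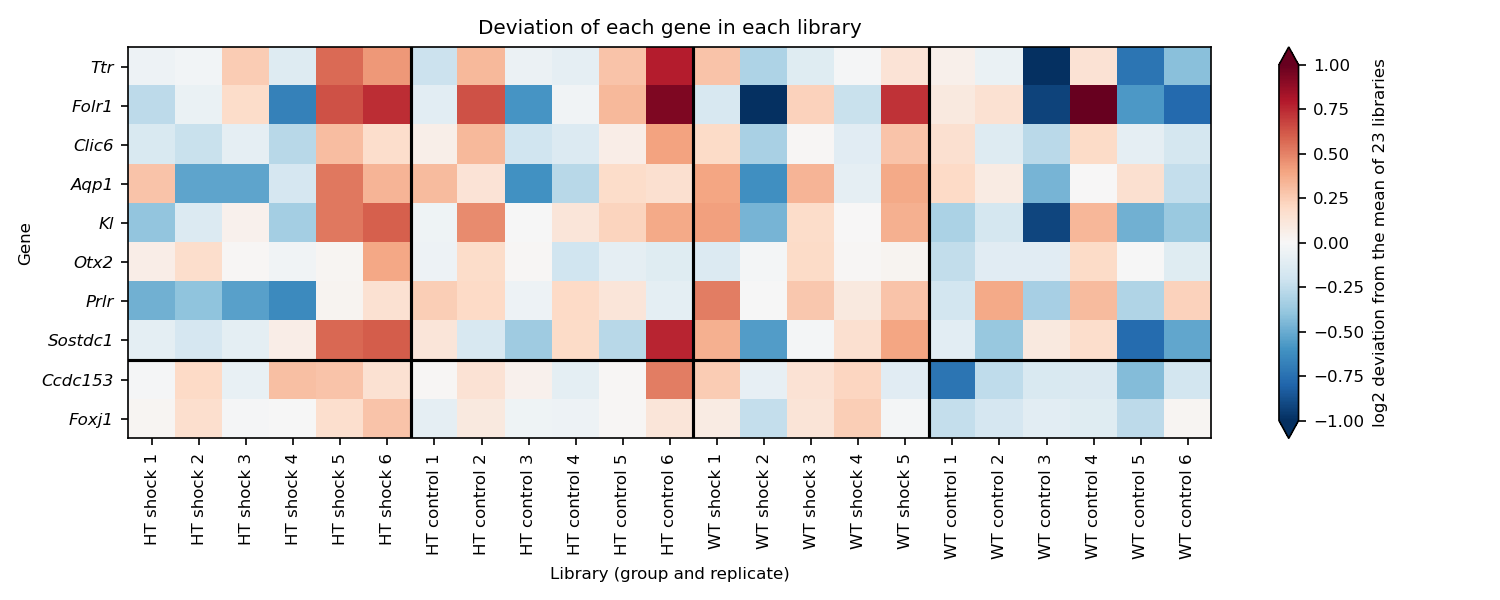
Log2 deviation of each gene (rows) in each library (columns, by group) from its mean over 23 libraries, with colours clipped at 1 in either direction. HT shock replicates 5 and 6 and HT control replicate 6 are high for most choroid plexus genes, and WT control replicate 3 and WT shock replicate 2 are low.

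Much of the variation of the choroid plexus genes lay between libraries of the same group. The mean log2 deviation of the 8 choroid plexus genes ranged from -0.27 to 0.43 in HT shock, from -0.23 to 0.40 in HT control, from -0.44 to 0.32 in WT shock and from -0.50 to 0.29 in WT control. HT shock replicates 5 and 6 stood at 0.40 and 0.43, while the other HT shock libraries lay between -0.27 and -0.10. HT shock replicates 5 and 6 each had 5 of the 8 genes among the 3 highest libraries of all, and HT control replicate 6 had 4. WT shock replicate 2 had 5 of the 8 among the 3 lowest, and WT control replicate 3 had 4.

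With each group mean removed, Ttr was correlated over the 23 libraries with Kl (Pearson r = 0.832, Spearman rho = 0.864), Folr1 (r = 0.815, rho = 0.831) and Clic6 (r = 0.805, rho = 0.764). The permutation p for r, two-sided and with libraries permuted within groups, was 1e-05 for Kl and Clic6, the smallest that 100000 permutations can give, and 4e-05 for Folr1. For rho it was 1e-05 for Kl, 3e-05 for Folr1 and 4e-05 for Clic6. Adjusted over the 10 relations computed, these 3 had values of at most 0.000133 for r and for rho. Without the 2 libraries farthest from the median of Ttr, r was 0.837 for Kl, 0.794 for Folr1 and 0.787 for Clic6.

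The correlation of Ttr was weaker with Sostdc1 (r = 0.521, rho = 0.537, permutation p = 0.0195 and 0.0177), Prlr (r = 0.51, rho = 0.512, permutation p = 0.0288 and 0.0292) and Aqp1 (r = 0.49, rho = 0.382, permutation p = 0.0147 and 0.0586). Adjusted, r had p = 0.0325, 0.0411 and 0.0294 for these 3, and rho had p = 0.0354, 0.0487 and 0.0732. Without the 2 farthest libraries r was 0.645, 0.593 and 0.435. With Otx2 (r = 0.0873, rho = -0.116, permutation p = 0.72 and 0.625), Ccdc153 (r = 0.213, rho = 0.285, permutation p = 0.406 and 0.228) and Foxj1 (r = 0.348, rho = 0.44, permutation p = 0.0884 and 0.0382) none passed when adjusted. Those 3 had adjusted p = 0.72, 0.451 and 0.111 for r and 0.625, 0.253 and 0.0546 for rho, and r of 0.126, 0.169 and 0.388 without the 2 farthest libraries. The 2 ependymal genes were correlated with each other (r = 0.623, rho = 0.611, permutation p = 0.00162 and 0.00409, adjusted p = 0.00405 and 0.0102, r = 0.628 without the 2 farthest libraries).

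**Figure D4:**
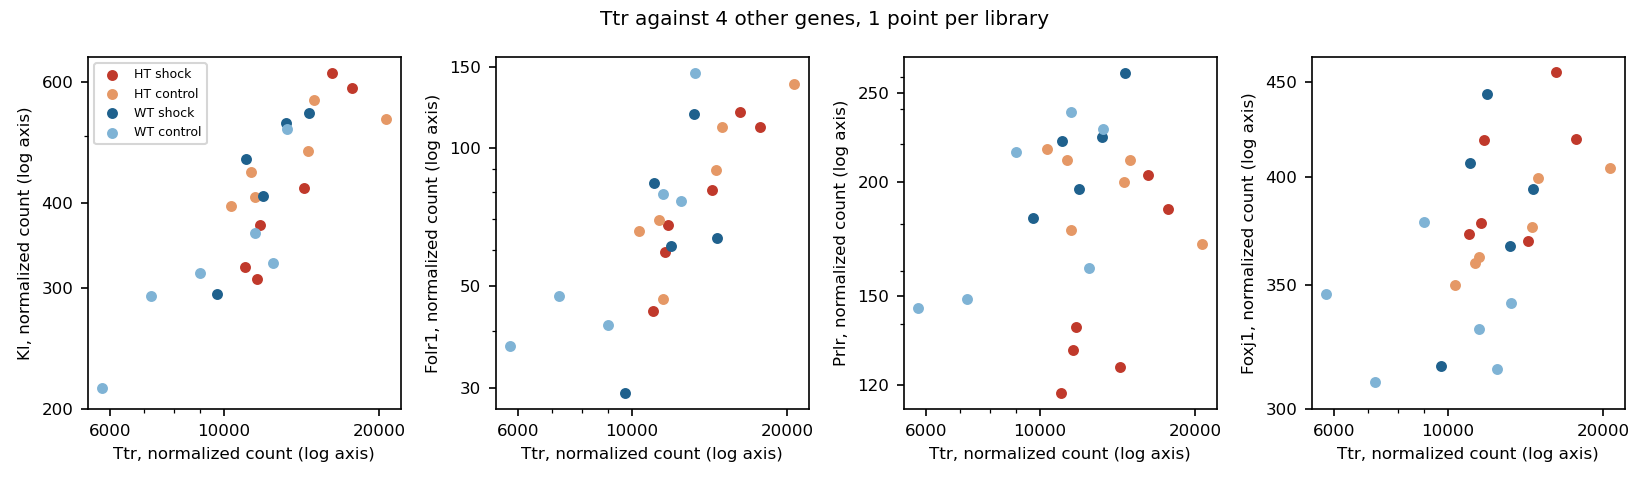
Ttr (horizontal, log axis) against Kl, Folr1, Prlr and Foxj1 (vertical, log axes) in normalized counts, 1 point per library and coloured by group. Kl and Folr1 follow Ttr across all groups. For Prlr, 4 HT shock libraries lie between 118 and 139, below libraries of other groups with similar Ttr.

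The genes most like the 8 choroid plexus genes were ranked by Pearson correlation with their mean over the 23 libraries, with group means removed, among 13939 genes. The highest were F5, coagulation factor V (r = 0.86), Enpp2, the enzyme autotaxin (0.85), Mfrp (0.85), the potassium channel subunit Kcne2 (0.80) and Riok1, a kinase (0.79). Next came Cldn2, a tight junction claudin (0.79), Ace, the angiotensin-converting enzyme (0.78), the calcium channel gene Orai1 (0.78), the glucose transporter gene Slc2a12 (0.76) and C1qc, a complement gene of microglia (0.76). Of these 10, 6 were on the list of other choroid plexus genes. For the mean of the 2 ependymal genes the highest were the endothelial gene Ly6c1 (r = 0.77), Prc1 (0.76), Baiap2l1 (0.71), Dyx1c1, a gene of cilium assembly (0.69), Orc5 (0.68), Sec1 (0.68), Arap3 (0.68), Draxin (0.67), Rmdn3 (0.66) and Cyba (0.65). No gene of the cilia list was among those 10. These correlations are ranks over many genes and carry no test.

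Of 30 other choroid plexus genes listed, 28 were tested, and in HT shock against WT shock 1 rose and 2 fell, against 9.28% of all genes. Msx1, a homeobox gene, rose by 0.47 ± 0.11 on the log2 scale (SE, adjusted p = 0.0178). It averaged 132 ± 14.4 normalized counts in HT shock (SD, n = 6) and 95.3 ± 10.7 in WT shock (SD, n = 5). Trpm3, a cation channel, fell by 0.41 ± 0.09 (adjusted p = 0.0134) and Htr2c, a serotonin receptor, fell by 0.31 ± 0.08 (adjusted p = 0.0221). Both are also expressed by neurons. Trpm3 averaged 3352 ± 343 normalized counts in HT shock and 4454 ± 219 in WT shock, and Htr2c averaged 1405 ± 172 in HT shock and 1730 ± 70.1 in WT shock (SD, n = 6 and 5). Without shock the means of these genes differed in the same directions, though none was called. In HT control and WT control Msx1 averaged 122 ± 15.7 and 96.8 ± 13.2 normalized counts. Trpm3 averaged 3751 ± 589 and 4187 ± 432 there, and Htr2c 1598 ± 189 and 1825 ± 109 (SD, n = 6 each). The Htr2c call was lost without HT shock replicate 1 (-0.25, adjusted p = 0.0591) or 2 (-0.29, adjusted p = 0.0536), and with the replicate block by title numbers (-0.30, adjusted p = 0.0541). The list had a median of -0.02 in that comparison with 13 of 28 positive, against a median of 0.004 over all genes.

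In HT control against WT control, 0 of the 28 were called and 23 were positive, with a median of 0.24, against 49.8% positive and a median of -0.001 over all genes. Unadjusted, 12 were higher and 1 lower at p under 0.05, against 4.96% of all genes higher and 11.1% in either direction. The smallest p belonged to Kcne2, which had 75.8 ± 22.4 normalized counts in HT control and 41.6 ± 18.2 in WT control (SD, n = 6 each), a log2 difference of 0.92 ± 0.25 (SE, adjusted p = 0.29). Next was Igf2, a growth factor of choroid plexus and meninges, at 0.36 ± 0.10 (adjusted p = 0.297). In WT shock against WT control 25 of 28 were positive (median 0.14), against 49.8% of all genes, and 0 were called. Kcne2 (0.72 ± 0.26) and Calml4 (0.53 ± 0.19) led, both with adjusted p = 0.998. Between HT shock and HT control 7 were positive (median -0.07), against 51% of all genes, and 0 were called. The smallest p belonged to Htr2c (-0.19 ± 0.07, adjusted p = 0.311) and Ace (-0.17 ± 0.08, adjusted p = 0.338). In the interaction 2 of 28 were positive (median -0.24), against 49.8% of all genes, and 0 were called. Ace (-0.29 ± 0.11) and Kcne2 (-0.88 ± 0.36) led, both with adjusted p = 0.758.

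Of 32 other ependymal and motile cilium genes listed, 31 were tested. In HT shock against WT shock 23 were positive (50.8% of all genes), with a median of 0.16. Against 9.28% of all genes, 1 of the 31 was called. That gene was Rfx3, a transcription factor of cilium genes that neurons also express, which fell by 0.26 ± 0.07 (adjusted p = 0.0242), against the direction of most of the list. The Rfx3 call was lost in 5 settings, without HT shock replicate 1, 2 or 3 or WT shock replicate 2 or 3 (adjusted p 0.0506 to 0.0656). Without shock Rfx3 was also lower in HT, uncalled, with 1532 ± 140 normalized counts in HT control and 1709 ± 152 in WT control (SD, n = 6 each). In HT control against WT control 26 of 31 were positive (median 0.19), against 49.8% of all genes, and 0 were called. Unadjusted, 6 of the 31 were higher and 1 lower at p under 0.05, against 4.96% of all genes higher and 11.1% in either direction. Rfx2 (0.43 ± 0.12, adjusted p = 0.34) and Ccdc39 (0.26 ± 0.09, adjusted p = 0.384) led. Between HT shock and HT control the median was 0.03 with 0 called, led by Ccdc40 (0.68 ± 0.25, adjusted p = 0.296) and Rfx3 (-0.14 ± 0.07, adjusted p = 0.348). In WT shock against WT control the median was 0.11 with 0 called, led by Ccdc39 (0.20 ± 0.10) and Dnah11, a dynein heavy chain (0.33 ± 0.18), both with adjusted p = 0.998. In the interaction the median was -0.03 with 0 called, led by Dnah11 (-0.55 ± 0.24, adjusted p = 0.768) and Ccdc40 (0.82 ± 0.37, adjusted p = 0.771).

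**Figure D5:**
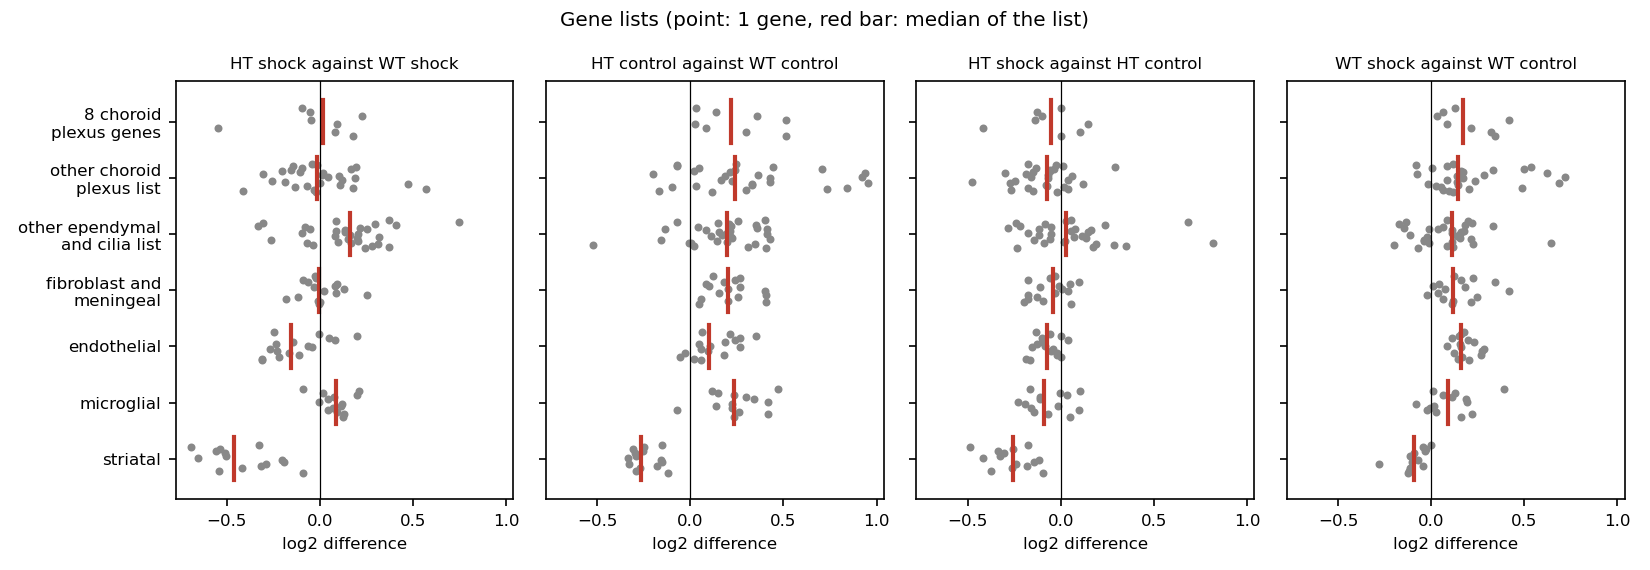
Log2 differences (horizontal axes) of single genes (points) in 7 lists (rows) for 4 comparisons, with list medians as red bars. In HT control against WT control the medians of the choroid plexus, cilium, fibroblast, endothelial and microglial lists lie between 0.10 and 0.24 and that of the striatal list at -0.26.

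Markers of other cell types also had differences of mostly 1 sign in both comparisons against WT control, where 49.8% of all genes were positive. Their part in the differences of the ventricular genes was not tested. In HT control against WT control, 16 of 16 fibroblast and meningeal genes (median 0.20), 14 of 16 endothelial genes (0.10) and 13 of 14 microglial genes (0.24) were positive. In the same comparison 14 of 14 striatal genes were negative (-0.26), and 0 genes of these 4 lists were called. By limma with unadjusted p under 0.05, 6 fibroblast and meningeal, 6 endothelial and 2 microglial genes were higher there, and 12 striatal genes were lower. Over all genes 4.96% were higher at that p and 11.1% passed in either direction. In WT shock against WT control, 15 of 16 fibroblast and meningeal genes (median 0.12) and 16 of 16 endothelial genes (0.16) were positive. So were 11 of 14 microglial genes (0.09) and 5 of 5 erythrocyte genes (0.25), while 13 of 14 striatal genes were negative (-0.09). Again 0 genes of these lists were called. At an unadjusted p under 0.05, 6 of those 16 endothelial genes were higher, against 2.04% of all genes. The summed level of the 16 fibroblast and meningeal genes lay between 4630 and 6842 normalized counts in HT shock, 5284 and 6556 in HT control, 5097 and 6761 in WT shock, and 4479 and 6137 in WT control. That of the 14 striatal genes lay between 30889.6 and 45519.1 in HT shock, 39836.5 and 50656.3 in HT control, 50375.5 and 51289.9 in WT shock, and 50806.5 and 56673.4 in WT control. Where Prlr fell, in HT shock against WT shock, 10 of 14 striatal genes fell and 0 rose, against 5.33% of all genes lower and 9.28% in either direction. The fibroblast (-0.01), endothelial (-0.16) and microglial (0.08) lists had 0 called genes there.

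The mean level of the 28 other choroid plexus genes was added to the model as a covariate, an alternative chosen after seeing the data. Prlr in HT shock against WT shock then had -0.55 ± 0.12 (SE, limma adjusted p = 0.0134). In that comparison the covariate moved no member by much, and the median of the 10 genes was 0.0617 with and without it. The unchanged Prlr difference therefore does not show that Prlr departs from other choroid plexus genes. In HT control against WT control the differences became 0.04 ± 0.10 for Ttr, 0.01 ± 0.09 for Kl and -0.49 ± 0.19 for Folr1, all smaller than or opposite to those without the covariate. Ccdc153 had 0.37 ± 0.14 and Foxj1 0.09 ± 0.08 there. None of these 5 passed, and the lowest adjusted p among them was 0.682. In the other comparisons the covariate itself varies with the groups, so values with it describe the members relative to other choroid plexus genes. With it the median of the 10 genes was -0.04 in HT control against WT control, 0.04 in WT shock against WT control, 0.11 in HT shock against HT control and 0.12 in the interaction.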

How the data were processed

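Brain libraries were prepared with a stranded mRNA kit, per the labels' protocols. The authors' deposited values are a signal per gene, that is, normalized counts with decimals and no raw counts. The submitters' processing notes name Salmon 1.1.0, R 3.6.2, DESeq2 1.26.0 and GRCm38 without roles. The filter behind the 18578 genes is not stated in them. Between 26.4% and 66.4% of the low values, depending on the library, came within 0.1 of whole multiples of a single step, so reads were not recovered and depth is unknown. Of 24 library columns, 1 had no matching label and was left out.

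Titles gave the groups. Symbols were matched by Ensembl ID for 18563 genes. Values entered limma 3.58.1 (statmod 1.5.0, R 4.3.3) as log2(normalized count + 1) for 17118 genes whose mean reached 10. All 4 groups shared a model with a mean-variance trend and robust moderation. Benjamini-Hochberg adjustment ran over all tested genes in each of 5 contrasts, with 0.05 as the threshold, and the procedure was tested on simulated data. No label ties a library to its own animal. The p-values therefore describe spread among libraries, which may be technical.

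The 10 genes and all lists were chosen with earlier results of these data known. The text names the 10 members, Grin2b, up to 4 called genes of each other list or else the 2 with the smallest p, and the 10 genes of mean 20 or more that correlated best with each class of members. Alternatives were median centring, 2 other pseudocounts, 2 other filters, the compared groups alone, a replicate block by either numbering, library weights and the omission of each library. A covariate for other choroid plexus genes was chosen after seeing the data. Plots used matplotlib 3.10.9.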

Additional observations from a re-analysis of the deposited data

Results flagged for a closer look

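Among 40 sets of values (10 genes in 4 groups), 1 library stood apart from the others of its group by its gap relative to the range. Chance gives about 1 in 20 such sets. Ccdc153 in HT control replicate 6 had 104 normalized counts, against 67.9 to 80.5 in the other 5 HT control libraries. The same library had the highest Ttr and Sostdc1 of all libraries, with 20675 and 95.9 normalized counts, and lay apart on the first principal component. Without it the Ccdc153 difference in HT control against WT control was 0.34 ± 0.12 (SE, limma adjusted p = 0.75).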

How the results depend on the processing

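The number of the 10 genes called was recomputed in 33 settings. In HT shock against WT shock it was 1 in all settings other than the omission of a library, where it ranged from 0 to 1, and Prlr was called in 26 of 33 settings. In HT shock against HT control it was 1 with library weights, against 0 as reported, and from 0 to 1 when libraries were left out. The other comparisons had 0 in all settings run. With a replicate block the number called was 1 in HT shock against WT shock, where Prlr had -0.58 ± 0.15 by title numbers (adjusted p = 0.0498) and -0.57 ± 0.15 by bracketed numbers (adjusted p = 0.0348). It was 0 elsewhere under either block, so that the block changed no call among the 10 genes. Among libraries of equal number, 5 of 33 pairs by title and 3 of 33 by bracketed number had a correlation of deviations over 0.1. Their medians were 0.0157 and 0.0166, against 0.00371 and 0.00243 for pairs of unequal number. The share over 0.1 among the latter was not computed, so whether equal numbers pair libraries was not settled. Of all genes, 1589 were called in HT shock against WT shock as reported, 450 and 976 with the block by title and by bracketed numbers, 3775 with library weights, 2932 with the compared groups alone, and 422 to 2923 when libraries were left out. In HT shock against HT control the reported 0 became 2792 with library weights, 1 with the compared groups alone and 0 to 2065 when libraries were left out. In the interaction the reported 0 became 2 with library weights and 0 to 1 when libraries were left out, and in HT control against WT control 0 to 2. Of 50 member comparisons, 25 changed sign in at least 1 setting without being called in either. The median of the 10 genes in HT control against WT control lay between 0.14 and 0.29 when libraries were left out. It lay between -0.06 and 0.09 in HT shock against WT shock, 0.16 and 0.30 in WT shock against WT control, and -0.39 and -0.11 in the interaction. Of 4494 results of named genes over the settings, 33 gained a call, 15 lost one and 4446 kept their state. The gains include those of Prlr in HT shock against HT control and otherwise concern named genes outside the 10 members. For named genes no called direction reversed. Sequencing depth is unknown, and its part in what was called was not tested.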

Other observations

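Of 10 genes of pituitary and pineal, tissues next to the ventricles, Gh, Prl, Cga, Tshb, Pitx1, Asmt and Gngt1 were not in the table. The 3 that were found were Pomc, Aanat and Tph1. Their summed level was low, from 75.9 to 122 normalized counts in HT shock, 58.6 to 104 in HT control, 60.7 to 124 in WT shock and 53.3 to 85.7 in WT control, and 0 were called in any comparison. The smallest p for them belonged to Aanat in WT shock against WT control (0.85 ± 0.31 SE on the log2 scale, limma adjusted p = 0.998).

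The 5 erythrocyte genes (globins and Alas2), a measure of blood left in the tissue, summed to 6316 to 12479 normalized counts in HT shock, 5785 to 13433 in HT control, 7898 to 14357 in WT shock and 6436 to 12202 in WT control. Their medians were -0.22 in HT shock against WT shock, 0.16 in HT control against WT control, -0.08 in HT shock against HT control and 0.25 in WT shock against WT control, with 0 genes called.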
